A study of Mus musculus with 6 samples.

Results

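Chemokine ligands are small secreted or membrane-anchored proteins that guide leukocytes and other motile cells. The 32 genes described here, which are not the whole family, were chosen by name as ligands in mouse. A probe was found for 31 of them among the 18213 genes that the arrays measured with a current symbol, through the accession that each probe carries. Cxcl11, a ligand of the receptor CXCR3 that the reference annotation of C57BL/6J lists as a transcribed pseudogene, had no such probe and was not analysed here. The 31 genes had 38 probes, and 7 of them had more than 1.

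Each array held RNA of the whole lung of 1 mouse embryo at E18.5, shortly before birth. The 3 knockout embryos (KO) were 15-1Flox/Flox and 15-2-/-, and the 3 wild type embryos (WT) were 15-1+/+ and 15-2+/+. ECAT15-2 is Dppa2 and ECAT15-1 is Dppa4, so every knockout embryo also carried the floxed ECAT15-1 allele on both chromosomes. All embryos came from crosses of parents that each had 1 floxed ECAT15-1 allele and 1 null ECAT15-2 allele, on a mixed background that began with 129Sv stem cells, was crossed to C57/BL6 and passed once through Cre or FLPe transgenic mice, for which the background is not known. Whether an embryo carried the transgene, and its litter, are not given in the labels.

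Chemokines fall into subfamilies by the spacing of their first cysteines (CC, CXC, CX3C and C) and act through G protein-coupled receptors, while atypical receptors bind and clear them. Inflammatory members are switched on by cytokines and microbial products, often through the transcription factor NF-kB or through interferon signalling. Constitutive members place resident macrophages, lymphocytes and developing vessels in tissues such as the lung.

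Values below are scaled intensities, the background-subtracted brightness of a probe after each array's 75th percentile was brought to their common mean of 1624.4. No level of 1 probe is set against that of another probe. Differences are log2 values, knockout minus wild type, from limma with Benjamini-Hochberg adjustment over all 19866 features for which every array of 1 group or of both was well above background. The confidence intervals are 95% intervals of the same model. In each group n is 3, except where single arrays are compared, left out or given a term of their own. In whole lungs, fewer cells of a type and less RNA per cell cannot be told apart.

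Dppa2 had scaled intensities of 52.8, 51.3 and 96.3 in knockouts 1, 2 and 3, against 171.1, 141.3 and 136.9 in wild types 1, 2 and 3 (difference -1.22, limma adjusted p = 0.0604), and Dppa4 was not well above background on any array. Where the probe lies relative to the deleted part is not known here. Between 63.3% and 68.8% of probes per knockout array and 66.1% to 66.6% per wild type array lay well above background. Kdm5d, Uty, Ddx3y and Eif2s3y, which are Y-linked, were above background on wild types 1 and 2 and on no other array, and Xist on the other 4 arrays. Knockout 3 shared a slide (slide 1) with wild types 1 and 2, knockouts 1 and 2 shared another, and wild type 3 was alone on the third. The numbers that open the raw file names join knockout 3 with wild type 3, knockout 1 with knockout 2, and wild type 1 with wild type 2. Differences within slide 1, and between knockout 3 and wild type 3, are therefore given beside the results. Slide 1 sets knockout 3, which had Xist, against wild types 1 and 2, which had the Y-linked genes. Genotype and this split cannot be told apart within it. Knockout 3 and wild type 3 both had Xist. Of the lung epithelium markers 8 of 8 were measured on the arrays, among them the surfactant gene Sftpc and the lung identity factor Nkx2-1.

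Promoter sequence is shown for Cxcl1, Cxcl2 and Ccl20, which with Cxcl5 were high on 1 array, and for Cxcl10, the interferon-induced ligand that was measured. The promoter of Cxcl5 was not analysed here. The sequences are RefSeq's on GRCm38.p6, the 160 bases before the transcription start read 5′ to 3′ on the gene's strand, and capitals mark every match to the kB motif, the binding motif of NF-kB, on either strand.
Cxcl1, chr5:90891085-90891244, plus strand: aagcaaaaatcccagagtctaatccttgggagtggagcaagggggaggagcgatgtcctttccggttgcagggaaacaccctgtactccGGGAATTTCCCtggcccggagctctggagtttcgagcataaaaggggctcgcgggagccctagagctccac
Cxcl2, chr5:90903739-90903898, plus strand: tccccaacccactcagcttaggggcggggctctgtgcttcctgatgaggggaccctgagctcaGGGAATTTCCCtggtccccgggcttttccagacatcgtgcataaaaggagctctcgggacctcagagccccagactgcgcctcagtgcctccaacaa
Ccl20, chr1:83116606-83116765, plus strand: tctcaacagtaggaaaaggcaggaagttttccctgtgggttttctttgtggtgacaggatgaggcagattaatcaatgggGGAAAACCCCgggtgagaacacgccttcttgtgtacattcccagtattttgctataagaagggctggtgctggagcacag
Cxcl10, chr5:92348890-92349049, minus strand: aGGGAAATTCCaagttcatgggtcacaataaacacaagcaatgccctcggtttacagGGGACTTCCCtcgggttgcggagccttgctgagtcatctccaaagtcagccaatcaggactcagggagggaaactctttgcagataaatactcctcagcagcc

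Cxcl1 and Cxcl2 hold the same 11 bases in capitals, where a match on the plus strand overlaps a match on the minus strand. The reference table held 26 promoter windows of 300 bases for 23 of the ligand genes, and 6 of these windows, of 6 genes, had a kB match. The others of these 6 were Ccl27a and Ccl9. Of all 32851 windows 4.51% had a match. The core of the interferon-stimulated response element, searched on both strands as GAAA, any 2 bases and GAAA again, was found in the windows of 3 of these genes, Cxcl10, Ccl19 and Cxcl14, and in 3.44% of all windows. These are matches of letters and no evidence of binding.

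Most ligands were detected in the fetal lung. A probe counts as detected on an array if the scanner software called it well above background, and a gene if any of its probes was. By this count 19 of 31 genes were detected on all 6 arrays, 7 on some and 5 on none, against 73.7% of all genes with a symbol on all 6 arrays and 18.3% on none. The 19 were Cxcl12, Cxcl13, Cxcl14, Cxcl15, Cxcl16, Cx3cl1, Ccl2, Ccl3, Ccl5, Ccl6, Ccl7, Ccl9, Ccl11, Ccl12, Ccl19, Ccl21a, Ccl24, Ccl25 and Ccl27a. Not well above background on any array were Cxcl9, an interferon-induced ligand of CXCR3, Ccl8, a monocyte attractant, Ccl22, a ligand of CCR4, Ccl28, a ligand of mucosal epithelia, and Xcl1, the C-type ligand that attracts dendritic cells with the receptor XCR1. Ccl17, the other ligand of CCR4, had scaled intensities of 29.7, 28.7 and 33.3 in the knockout lungs, against 16.0, 22.7 and 30.0 in the wild type lungs, and was above background on 2 arrays of each group. Knockout arrays had 23, 24 and 24 detected ligands and wild type arrays 21, 24 and 24.

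**Figure D1:**
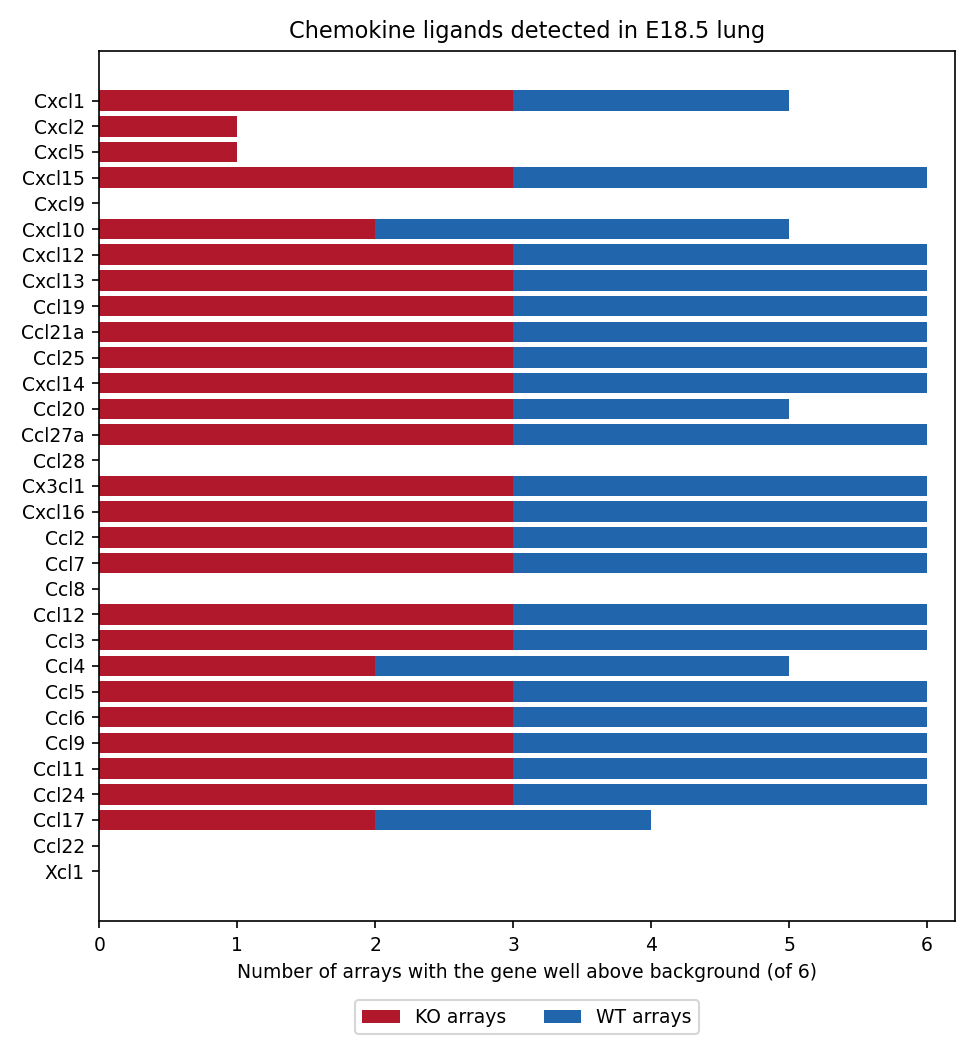
Number of arrays, out of 6, on which each of the 31 chemokine ligands with a probe lay well above background, with knockout arrays in red and wild type arrays in blue. Of these genes 19 reach 6 arrays, 7 lie between, and 5 have no bar.

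Of the 31 genes 23 passed the filter on dim probes and were tested. None of the 23 passed the threshold of an adjusted p under 0.05 in limma, where 1.34% of all features did, and 4 had an unadjusted p under 0.05, where 25.7% of all features did. Of these 4 the higher in knockouts was Ccl11, in a direction that 15.4% of all features took, and the lower were Cxcl15, Ccl21a and Ccl6, in a direction that 10.3% took. Differences were positive for 11 and negative for 12 of them, with a median of -0.03, beside 0.01 over all features. The median size of the differences was 0.30, beside 0.21 over all features. The arrays of the groups did not overlap for 6 of the 23, and the same held for 31.3% of all features. Knockouts lay above wild types for 2 ligands (17% of all features) and below for 4 (14.3% of all features).

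**Figure D2:**
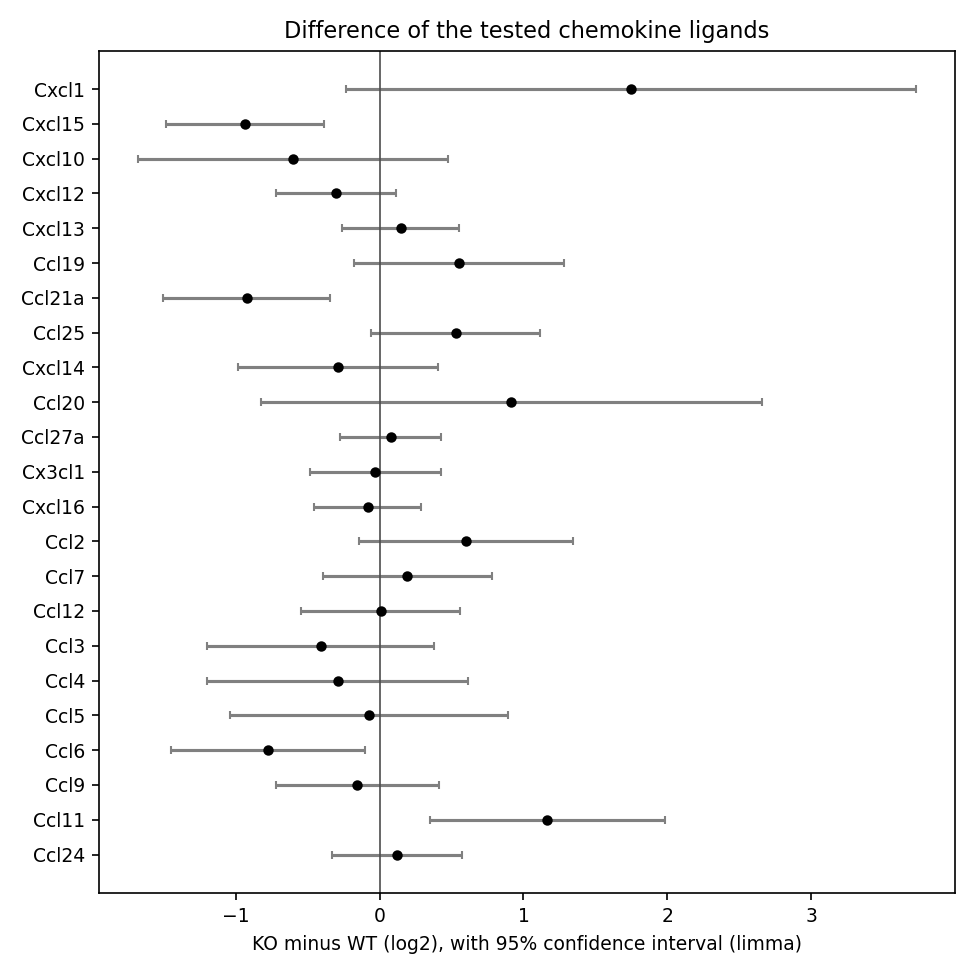
Difference of each of the 23 tested chemokine ligands, knockout minus wild type in log2 units, as points with 95% confidence intervals from limma, with ligands of like role next to each other. Estimates run from -0.94 for Cxcl15 to 1.75 for Cxcl1, whose interval is also the widest, and the intervals of Cxcl15, Ccl21a, Ccl6 and Ccl11 leave out 0 before adjustment.

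Among the ligands that attract neutrophils through CXCR2, Cxcl1, Cxcl2 and Cxcl5 were high in 1 lung, knockout 1. Cxcl1 had scaled intensities of 270.0, 31.5 and 30.5 in knockouts 1, 2 and 3, against 12.1, 30.7 and 18.51 in wild types 1, 2 and 3. The groups overlapped, since knockouts 2 and 3 lay at the level of wild type 2, and wild type 1 was not well above background. The difference of 1.75 (SE 0.84, interval -0.24 to 3.73) did not pass (limma adjusted p = 0.240), and without knockout 1 it was 0.70. It was 0.66 within slide 1 and 0.72 between knockout 3 and wild type 3.

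Cxcl2, which is encoded close to Cxcl1, had scaled intensities of 47.0, 4.71 and 5.08 in the knockout lungs, against 3.56, 3.86 and 3.45 in the wild type lungs. Cxcl5, a ligand made by epithelial cells, had 58.1, 4.08 and 4.00 in the knockout lungs, against 3.87, 5.56 and 3.47 in the wild type lungs. Either gene was well above background in knockout 1 alone, so neither was tested. Set against the dimmest probe that each of the other 5 arrays called well above background, knockout 1 was at least 2.37-fold higher for Cxcl2 and at least 2.93-fold higher for Cxcl5. These are no strict bounds, since a probe that is not well above background can read higher than that dimmest probe. Ccl20 did so in wild type 1 (19.6 against 17.5).

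Ccl20, which attracts CCR6-bearing lymphocytes and dendritic cells to epithelia, was also high in knockout 1. Its scaled intensities were 190.8, 28.3 and 28.8 in knockouts 1, 2 and 3, against 19.6, 44.0 and 26.9 in wild types 1, 2 and 3, with wild type 1 not well above background. Knockout 1 lay 4.33-fold above the next array, and the other knockouts lay within the range of the wild types. The difference of 0.91 (SE 0.74, limma adjusted p = 0.467) was 0.00 without knockout 1, -0.03 within slide 1 and 0.10 between knockout 3 and wild type 3.

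Knockout 1 lay at least 2-fold above every other array for Cxcl1 and Ccl20 among the 23 tested ligands, and for 0.247% of the 19838 features measured on all 6 arrays. By the distance between knockout 1 and the next array, Cxcl1 ranked 2 and Ccl20 ranked 4 among 13922 features with a symbol. Both genes passed the filter through the knockout arrays alone and are singled out by these same values, so the ranks are only a description. Knockout 1 was the highest of the 6 arrays for 6 of the 23 tested ligands (26.1%) and for 21.9% of all features. The 6 were Cxcl1, Ccl20, Cx3cl1, Ccl2, Ccl7 and Ccl24. Of these Ccl2, the main monocyte attractant, had 511, 206 and 321 in the knockout lungs, against 177, 238 and 229 in the wild type lungs. Its difference of 0.60 (SE 0.32, limma adjusted p = 0.275) was 0.27 without knockout 1. Cxcl3, a further ligand of CXCR2 outside the 32 genes, was not highest in knockout 1, with 33.3, 14.3 and 20.4 in the knockout lungs, against 42.0, 66.3 and 22.4 in the wild type lungs, and with knockout 2 not well above background.

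**Figure D3:**
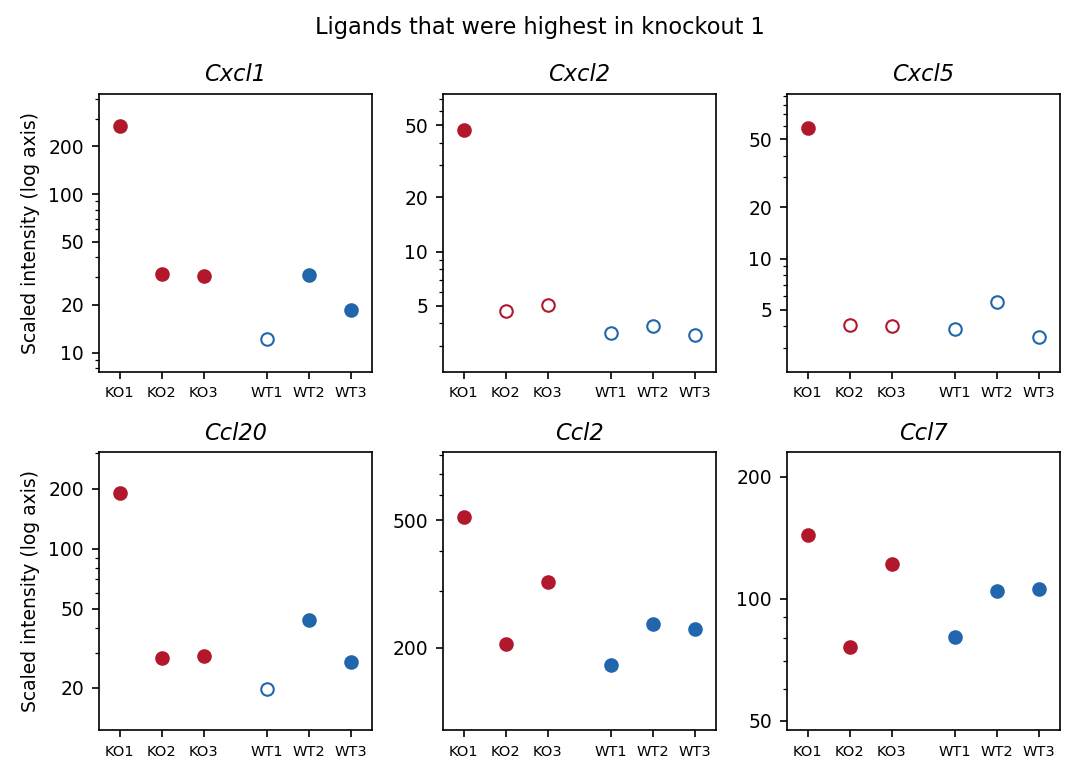
Scaled intensity on a log axis for 6 ligands, 1 point per array, knockouts in red left of wild types in blue, with open points for arrays on which the probe was not well above background. Knockout 1 stands alone at the top for Cxcl1 (270.0), Cxcl2 (47.0), Cxcl5 (58.1) and Ccl20 (190.8), and is highest by smaller margins for Ccl2 and Ccl7.

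Markers of neutrophils and targets of NF-kB were measured beside these ligands. The summed scaled intensity of the 8 tested neutrophil markers was 23811 in knockout 1 and 30695 and 24012 in knockouts 2 and 3, against 38207 to 59007 in the wild type lungs, so that knockout 1 had the lowest sum of the 6 arrays. Of these 8 markers 8 had negative differences and 1, the calgranulin S100a8, fell (-0.98, limma adjusted p = 0.0375). S100a8 passed in 5 of 19 alternative settings (adjusted p from 0.0192 to 0.896) and did not pass without knockout 1 (0.103), knockout 2 (0.102), wild type 1 (0.141) or wild type 2 (0.140). Elane, the neutrophil elastase, was not well above background on any array. In knockout 1, 0 of 9 tested NF-kB targets and inducers lay at least 2-fold above both other knockouts. Of all features 0.609% did. Against the mean of the other knockouts, the cytokine gene Tnf lay 1.86-fold and the NF-kB regulator Nfkbiz 1.83-fold higher in knockout 1. These 2 genes were named for their level there. The median of the same comparison over the 9 genes was 0.16 in log2 units, beside 0.01 over all features. Knockout 1 was the highest of the 6 arrays for 3 of the 9, Nfkbiz, Relb and Birc3, and for 21.9% of all features. Il6 and Il1a, which encode cytokines, were not well above background on any array. The list's sum was 59381 to 64869 in the knockout lungs, against 52135 to 61404 in the wild type lungs. Its mean log2 level was 0.07, -0.26 and -0.03 in knockouts 1, 2 and 3, against 0.31, 0.22 and -0.08 in wild types 1, 2 and 3. Of the 9 genes 5 had positive and 4 negative differences, from -1.71 to 0.26, and 0 passed. Knockout 1 also had the highest lower limit of detection, since its dimmest intensity called well above background was 29.3, against 13.9 and 19.8 in knockouts 2 and 3 and 17.2 to 19.4 in the wild types. The undetected Ccl22 read 11.1 there and at most 4.09 elsewhere.

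Cxcl15, or lungkine, is a neutrophil-attracting ligand of the airway and alveolar epithelium in mouse. It had scaled intensities of 23495, 17289 and 28053 in knockouts 1, 2 and 3, against 46121, 52368 and 33098 in wild types 1, 2 and 3. The knockout lungs were lower, with no overlap, and wild type 3 was closest to them. The difference of -0.94 (SE 0.23, interval -1.49 to -0.39) did not pass (limma adjusted p = 0.0801). It was -0.81 within slide 1, -0.24 between knockout 3 and wild type 3, and -1.13 without wild type 3, the only setting under which it passed (adjusted p = 0.0346, from 0.0346 to 0.992 over the alternatives). In that setting 1972 of 19866 features passed. Wild types 1 and 2, which it keeps, had Y-linked genes and all knockouts had Xist, so genotype and this split cannot be told apart there. The other Cxcl15 probe differed by -0.45 in the fit over all probes, also with no overlap.

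Among the lung epithelium markers 7 of 8 had negative differences and 1 fell, Scgb3a1, a secretoglobin of airway secretory cells (-2.93, limma adjusted p = 0.0128). Scgb3a1 passed in 12 of 19 alternative settings (adjusted p from 0.00903 to 0.389) and did not pass without knockout 1 (0.0521), with slide as a block (0.0721) or with a term for wild types 1 and 2 (0.161). The summed scaled intensity of the 8 markers was 457072 to 522335 in the knockout lungs, against 483856 to 648695 in the wild type lungs, and wild types 1 and 2 had the highest sums. Their mean log2 level was 3.71 to 3.99 in the knockout lungs, against 4.32 to 4.81 in the wild type lungs, with no overlap. The part of these markers in the Cxcl15 values was not tested. Cxcl17, a chemokine of airway mucosa outside the 32 genes, had 19.6, 63.3 and 37.3 in the knockout lungs, against 231.6, 197.7 and 73.9 in the wild type lungs. It did not overlap either (-2.06, SE 0.54, limma adjusted p = 0.0865), and knockout 1 was not well above background.

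The constitutive ligands of vessels and lymphoid tissue differed among themselves. Ccl21a, which lymphatic endothelium makes to guide CCR7-bearing cells, had 3753, 6811 and 5620 in the knockout lungs, against 11430, 10846 and 7921 in the wild type lungs. All knockout arrays were below all wild type arrays, and wild type 3 was again the lowest wild type. The difference of -0.92 (SE 0.25, interval -1.50 to -0.34) did not pass (limma adjusted p = 0.0880), and was -0.99 within slide 1 and -0.50 between knockout 3 and wild type 3. Ccl21a has near-identical copies in the mouse genome, and the probe's signal may be shared with them.

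The tested lymphatic markers Lyve1, Mmrn1, Flt4 and Reln had differences of 0.17, 0.08, -0.18 and -0.84, and 0 of the 4 passed. Their summed scaled intensity was 11549 to 13722 in the knockout lungs, against 10914 to 12691 in the wild type lungs. Their mean log2 level was -0.62, -0.65 and -0.53 in knockouts 1, 2 and 3, against -0.23, -0.43 and -0.56 in wild types 1, 2 and 3. Prox1, the defining transcription factor of lymphatic endothelium, was not well above background on any array. The part of lymphatic cell number in the Ccl21a values was not tested. Ccl19, the other ligand of CCR7, went the opposite way, with 190, 265 and 334 in the knockout lungs, against 116, 192 and 240 in the wild type lungs. Those groups overlapped (0.55, SE 0.31, limma adjusted p = 0.2996), and its other probe differed by 0.21.

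Cxcl12, the ligand of CXCR4 that guides vessels and blood progenitors, had 8525, 7216 and 8397 in the knockout lungs, against 12787, 8754 and 8650 in the wild type lungs. Wild type 1 was high and the other arrays lay close together (-0.30, interval -0.72 to 0.12, limma adjusted p = 0.323). The second Cxcl12 probe, which carries another transcript accession, overlapped and had a difference of 0.15. Cxcl13, the ligand of CXCR5 that organises B cell follicles, had 83.8 to 121 in the knockout lungs and 78.6 to 101 in the wild type lungs (0.15, interval -0.26 to 0.56).

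Ccl25, the ligand of CCR9 that thymus and gut epithelium make, had 731, 924 and 719 in the knockout lungs, against 370, 616 and 709 in the wild type lungs. The groups did not overlap, but wild type 3 lay just under knockout 3, and the difference between these arrays was 0.02. The limma difference was 0.53 (SE 0.25, adjusted p = 0.231), with 0.59 within slide 1, and the other probe had 0.38. Thymus is a tissue that a lung dissection could hold, and the thymus markers Foxn1, Psmb11, Rag1, Rag2, Cd4 and Cd8a were not well above background on any array. The tested thymus markers were Prss16, a protease of thymus epithelium, with a difference of 0.61 (limma adjusted p = 0.217), and Dntt, the terminal transferase of lymphocyte precursors, with -0.40 (adjusted p = 0.154, no overlap). Their summed scaled intensity was 155, 195 and 222 in the knockout lungs, against 106.6, 148 and 182 in the wild type lungs. The part of thymus tissue in the Ccl25 values was not tested.

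Heart muscle markers, which pulmonary veins and carried-over heart tissue express, had the largest median difference of the 7 cell and tissue marker lists. Of 10 tested 10 had negative differences (median -1.43) and 6 fell in limma, Myl3, Myl4, Myl7, Tnnt2, Tnni3 and Nkx2-5. Likewise 6 passed with quantile normalization, with median scaling, with the authors' values and without wild type 3, and 5 passed without knockout 1. With slide as a block 0 passed, where 24 of all 19866 features did. With the normexp background 0 of all features passed. The 6 named genes did not pass with a block for the number in the file names. Their summed scaled intensity was 56440 to 78394 in the knockout lungs, against 96462 to 114086 in the wild type lungs, with no overlap. Their part in the ligand values was not tested.

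**Figure D4:**
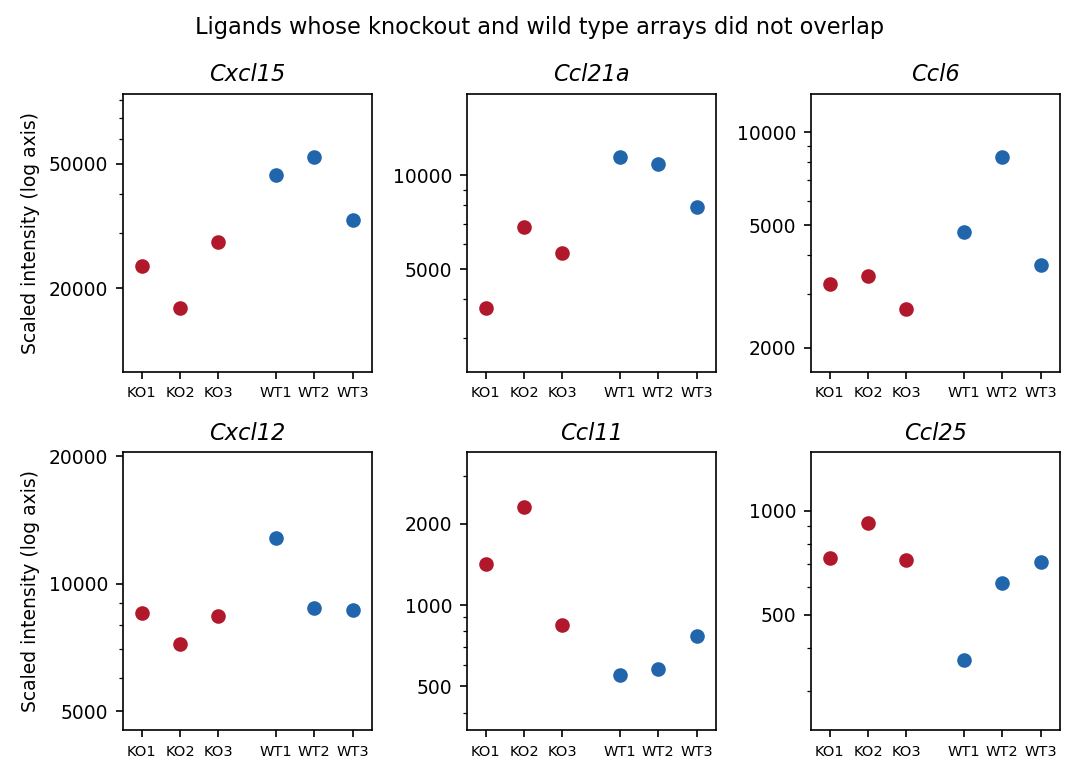
Scaled intensity on a log axis for the 6 tested ligands whose knockout (red, left) and wild type (blue, right) arrays did not overlap, 1 point per array. Knockouts lie below wild types for Cxcl15, Ccl21a, Ccl6 and Cxcl12 and above for Ccl11 and Ccl25, and wild type 3 is the wild type nearest to the knockouts in all 6 panels.

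Ccl11, or eotaxin, attracts eosinophils through CCR3. It had the largest positive difference of the ligands detected on all 6 arrays. The scaled intensities were 1424, 2303 and 841 in knockouts 1, 2 and 3, against 551, 578 and 767 in wild types 1, 2 and 3. Knockouts 1 and 2, which share a slide and a file name number, were well above the wild types, and knockout 3 was close to wild type 3. The difference was 1.17 (2.25-fold, SE 0.35, interval 0.35 to 1.99) and did not pass (limma adjusted p = 0.106). It was 0.58 within slide 1, 0.13 between knockout 3 and wild type 3, and 1.54 without knockout 3, the only setting under which it passed (adjusted p = 0.0438, from 0.0438 to 0.992 over the alternatives). Without knockout 3, 440 of 19866 features passed. Ccl24, another eotaxin, had 240 to 389 in the knockout lungs and 244 to 296 in the wild type lungs (0.12, interval -0.33 to 0.57). Their receptor gene Ccr3 was not well above background on any array.

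Among the inflammatory CC ligands, Ccl6, which macrophages and other myeloid cells of mouse make, had the largest difference. Its scaled intensities were 3218, 3428 and 2682 in the knockout lungs, against 4762, 8339 and 3726 in the wild type lungs, with wild type 2 the highest. The groups did not overlap (-0.77, SE 0.29, interval -1.45 to -0.10), but the gene did not pass (limma adjusted p = 0.154). The difference was -1.23 within slide 1 and -0.47 between knockout 3 and wild type 3. The related Ccl9, also a myeloid product, had 1087, 1402 and 1241 in the knockout lungs, against 1639, 1691 and 943 in the wild type lungs, and the groups overlapped (-0.16, interval -0.72 to 0.41).

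Of 13 tested macrophage markers 11 had negative differences and 0 passed. Their summed scaled intensity was 33334 to 40532 in the knockout lungs, against 40043 to 54583 in the wild type lungs, with wild types 1 and 2 highest. Their part, and that of the neutrophil markers, in the Ccl6 values was not tested.

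Ccl3 and Ccl4, inflammatory attractants also known as MIP-1 alpha and beta, overlapped between the groups. Ccl3 had 65.3, 75.3 and 135.6 in the knockout lungs, against 102.1, 170.5 and 89.9 in the wild type lungs. Ccl4 had 32.8, 51.8 and 95.05 in the knockout lungs, against 70.4, 83.8 and 50.04 in the wild type lungs, with knockout 1 not well above background. Their differences were -0.41 (interval -1.20 to 0.38) and -0.29 (interval -1.20 to 0.62), with signs that turned positive within slide 1 (0.04 and 0.31) and between knockout 3 and wild type 3 (0.59 and 0.93).

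The monocyte attractants Ccl7 and Ccl12, which like Ccl2 act on CCR2, had overlapping groups. Ccl7 had 75.8 to 144 in the knockout lungs and 80.3 to 106 in the wild type lungs (0.19, interval -0.39 to 0.78). Ccl12 had 505 to 910 in the knockout lungs and 561 to 740 in the wild type lungs (0.01, interval -0.55 to 0.56).

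Cxcl10 and Ccl5 were highest in wild types 1 and 2. Cxcl10, the interferon-induced ligand of CXCR3, had 34.9, 26.4 and 26.5 in knockouts 1, 2 and 3, against 90.3, 42.0 and 22.6 in wild types 1, 2 and 3, with knockout 1 not well above background. Wild type 3 was the lowest of all 6 arrays. The difference of -0.60 (SE 0.46, limma adjusted p = 0.438) was -1.22 within slide 1, 0.23 between knockout 3 and wild type 3 and 0.36 in a fit that gave wild types 1 and 2 a term of their own. That fit sets the 3 knockouts against wild type 3 alone.

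Ccl5, or RANTES, which T cells and other cells make, had 236, 299 and 355 in the knockout lungs, against 492, 379 and 156 in the wild type lungs. Its difference was -0.07 (interval -1.04 to 0.89), but 0.91 with the term, against wild type 3 alone, and 1.19 between knockout 3 and wild type 3. The 18 tested interferon response genes were also highest, on average, in wild types 1 and 2. Their mean log2 level was -0.41, -0.20 and 0.32 in knockouts 1, 2 and 3, against 0.92, 0.68 and -0.19 in wild types 1, 2 and 3. Of these 18 genes 0 passed and 18 had negative differences, and with the term, against wild type 3 alone, 12 were positive and 6 negative.

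**Figure D5:**
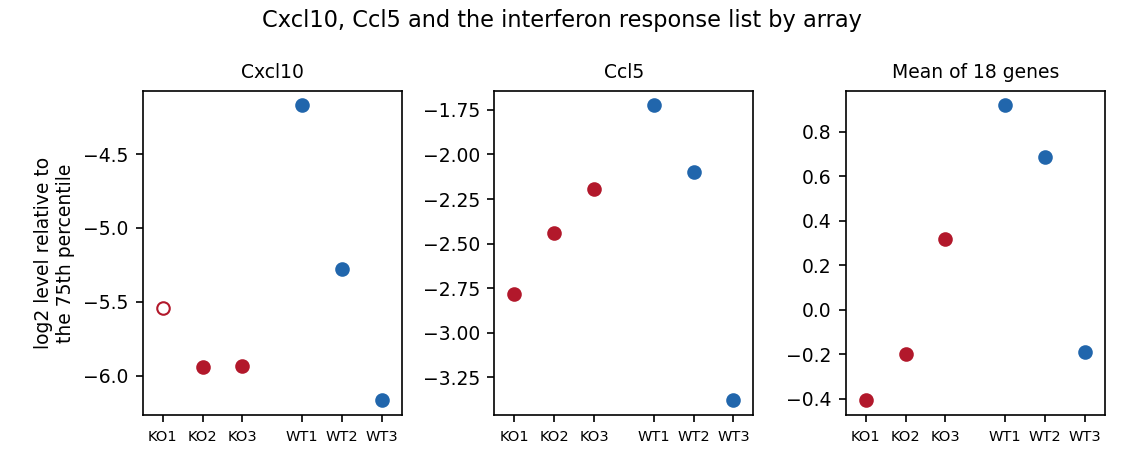
Log2 level relative to the array's 75th percentile for Cxcl10, for Ccl5 and for the mean of 18 interferon response genes, 1 point per array, knockouts in red left of wild types in blue, with an open point where Cxcl10 was not well above background. Wild types 1 and 2 are the highest arrays in every panel, and wild type 3 lies at -6.17 for Cxcl10, -3.38 for Ccl5 and -0.19 for the mean.

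The remaining epithelial and membrane-anchored ligands overlapped between the groups. Cxcl14, a ligand of epithelia and stroma, had 3368, 7179 and 6849 in the knockout lungs, against 7872, 6429 and 5966 in the wild type lungs. Knockout 1 was the lowest array, and the others overlapped (-0.29, interval -0.99 to 0.41). Ccl27a, a ligand of CCR10 known from skin, had 1154 to 1504 in the knockout lungs and 1073 to 1361 in the wild type lungs (0.08, interval -0.27 to 0.43), and near-identical copies may share its probe. Cx3cl1, or fractalkine, which is anchored in the membrane of endothelium and epithelium and binds CX3CR1, had 996 to 1550 in the knockout lungs and 1167 to 1545 in the wild type lungs (-0.03, interval -0.49 to 0.43). Cxcl16, the membrane-anchored ligand of CXCR6, had 692 to 716 in the knockout lungs and 592 to 860 in the wild type lungs (-0.08, interval -0.46 to 0.29).

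Of 23 chemokine receptor genes 12 were detected on all 6 arrays, 4 on some and 7 on none, the last being Ccr1, Ccr3, Ccr4, Ccr7, Ccr8, Ccr10 and Cxcr1. Of the 13 that were tested 0 passed in limma, where 1.34% of all features did, and 3 had an unadjusted p under 0.05, where 25.7% of all features did, with 5 positive and 8 negative differences and a median of -0.05. Ackr2, an atypical receptor that clears inflammatory CC ligands, had 2325, 3182 and 3537 in the knockout lungs, against 5835, 5720 and 4543 in the wild type lungs. It did not overlap (-0.84, SE 0.19, limma adjusted p = 0.0665), and passed without wild type 3 (adjusted p = 0.0385), where 1972 of 19866 features passed. Cxcr2, the neutrophil receptor of Cxcl1, Cxcl2 and Cxcl5, had 43.7, 21.9 and 51.8 in the knockout lungs, against 124.5, 82.4 and 61.4 in the wild type lungs (-1.22, SE 0.37, limma adjusted p = 0.110), and its other probe was not well above background on any array. Ccrl2, a receptor that presents chemerin, differed by -0.33. The differences of Xcr1 and Ccr6 were -0.26 each, and those of Ccr2, Cxcr3, Cxcr4, Cxcr6, Cx3cr1, Ackr1 and Ackr3 lay between -0.05 and 0.12.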

How the data were processed

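The deposited scanner files hold a background-subtracted, detrended intensity per spot with detection and outlier flags, quantified with Agilent Feature Extraction 10.7.3.1 on a design for mm9, per the file headers. No spot was saturated. The authors' deposited table holds log2 values, which matched quantile-normalized log2 intensities less the wild type median (median absolute difference 0.000389; column medians 0.0108, -0.00703 and -0.000876 in knockouts 1, 2 and 3 and 0 in each wild type); the method is not given in the sources used here.

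Control and outlier spots (77 to 110 per array) were left out. Log2 intensities were set relative to each array's 75th percentile, and spots of a probe were averaged. Accessions were named through RefSeq on GRCm38.p6 (26682 of 41174 probes). Kept were 26666 probes that every array of 1 group or of both called well above background, and the probe of highest mean stood for a gene. Limma 3.58.1 in R 4.3.3 (two-sided, no covariate, threshold 0.05) was tested on simulated data. The fold values of Cxcl2 and Cxcl5 use each array's dimmest probe above background, which is no strict bound. All ligands were named. Receptors and other lists were named by passing or smallest p, and some NF-kB genes by their level in knockout 1. Members and lists were chosen with earlier results of these data known. The labels do not say whether embryos shared a litter, so p-values measure the spread between these arrays, whose number limits precision. The planned normexp correction used spot medians, since the mean signal is not in the files. Values of 1 receptor gene are not reported here.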

Additional observations from a re-analysis of the deposited data

How the results depend on the processing

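Over 19 alternative settings, 374 of 433 differences of the 23 tested ligands had the sign given above, and 2 of the 433 passed. Cxcl1, Cxcl12, Cxcl15, Ccl2, Ccl6, Ccl11, Ccl19, Ccl21a and Ccl25 had 1 sign in all alternatives run, and the sign of the other 14 turned in at least 1. The count of ligands that passed was 0 to 1 when 1 array was left out, and 0 in every other setting, among them the replicate block. It was 1 without knockout 3 (Ccl11) and 1 without wild type 3 (Cxcl15). For receptors it was 0 to 1 when 1 array was left out, with Ackr2 passing without wild type 3. The count of all changed features, 267, was 0 with the normexp background (1516 at an unadjusted p under 0.05 in limma), 96 and 28 with a filter of at least 1 array and with none, 24 with a slide block and 5 with a block for the number in the file names. It was 26 with a term for wild types 1 and 2 and 0 without these arrays (1377 at an unadjusted p under 0.05). It was 59, 80 and 440 without knockouts 1, 2 and 3, and 34, 55 and 1972 without wild types 1, 2 and 3. With a replicate block it was 55. Arrays of equal replicate number did not deviate together (correlations -0.02, 0.04 and 0.03), so these values gave no sign of a pairing. With so few arrays they cannot exclude one, and knockout 3 and wild type 3 share a file name number. The cause of the changes in the count was not tested. Median scaling moved the median of all features to -0.14 and normexp to 0.16, and the median of the ligands was then -0.18 and 0.47. Of the changed features 144 were higher and 123 lower, against 59 and 138 with quantile normalization, 60 and 137 with the authors' values and 82 and 240 with median scaling. With signals that were positive and significant in place of well above background, 24 ligands counted as detected on all 6 arrays.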
